A study of Mus musculus with 4 samples.

Results

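Genes of the G1/S transition and of DNA replication were followed across 4 microarrays of mouse double positive thymocytes, the stage of T cell development at which cells carry both CD4 and CD8. The list held 38 genes, chosen by name for their part in licensing origins, activating the replicative helicase, copying DNA, supplying nucleotides, assembling chromatin or controlling entry into S phase. Every probe set whose only platform symbol was a listed gene was taken. This gave 85 probe sets for 37 genes, out of 18193 genes measured by 34945 such probe sets, and 1 listed gene is not analysed here. Each array came from 1 mouse. The 2 Ikf/f CD4-Cre- mice (Cre-negative) lack the Cre transgene, and the 2 Ikf/f CD4-Cre+ mice (Cre-positive) carry it, so that Ikaros, the zinc finger protein encoded by Ikzf1, is meant to be deleted in cells that have switched CD4 on. All 4 mice share the Ikf/f genotype, and no Cre-positive mouse of another Ikzf1 genotype is among the samples used here, so an effect of Cre cannot be told apart from one of Ikaros loss. The sources used here do not give the age or strain of the mice or the way the cells were isolated.

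A cell commits to division when cyclin E and its kinase release E2F transcription factors from retinoblastoma family proteins, and E2F then switches on genes for replication enzymes and for more cyclin E. In G1 the origin recognition complex, Cdc6 and Cdt1 load the ring of Mcm2 to Mcm7 onto DNA. At the start of S phase Cdc45 and the GINS complex turn this ring into an active helicase, behind which polymerases, the sliding clamp and ligase copy both strands. In the thymus, cells divide several times as they become double positive, while most double positive thymocytes are small and no longer cycling. Transcripts of this group are widely used as a measure of the share of cells in cycle.

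Values are log2 signals that the authors made with RMA, a method that removes background, gives all arrays the same distribution of signals and combines the probes of each set into 1 value. A gene was represented by its brightest probe set, and genes with a mean signal of at least 4.76, the 40th percentile of named probe sets, were tested. All 37 measured genes passed this filter among the 11639 genes tested. The groups were compared with limma in a two-sided test with Benjamini-Hochberg adjustment over all genes tested, with 0.05 as the threshold on the adjusted p. A positive difference, in log2 units, means a higher Cre-positive mean. Differences are given with the moderated standard error (SE) or the 95% interval, which is not adjusted for the number of genes. With 2 arrays a group, an exact permutation test of a single gene cannot reach a p below 0.333.

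The transcript of the targeted gene, Ikzf1, read 12.40 and 12.08 in the Cre-negative arrays, against 10.80 and 10.62 in the Cre-positive arrays, a fall of 1.53 on the log2 scale (limma adjusted p = 0.024), so it was lower in both libraries labelled Cre-positive. The 9 measured markers of double positive cells averaged 12.13 and 12.19 in Cre-negative against 11.88 and 11.95 in Cre-positive arrays. None was called by limma, against 1.37% of all genes. Of the 9, 8 were lower in the Cre-positive mean, where 61% of all genes were higher. The groups did not overlap for 7, all lower, against 18.7% of all genes. Those lower at an unadjusted p under 0.05 were 3, against 6.29% of all genes (Cd1d1 at −0.66, Cd8a at −0.30 and Cd8b1 at −0.29). The female-specific transcript Xist read 12.75 in Cre-negative 2 and 4.73 to 5.37 on the other 3 arrays, so Cre-negative 2 differed from the other mice in sex. Over all genes 160 were called, and this number was 14 without Cre-negative 1, 3 without Cre-negative 2, 43 without Cre-positive 1 and 99 without Cre-positive 2.

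Replication genes differed between the mice of each group about as much as between the groups. None of the 37 was called by limma (1.37% of all genes were), and adjusted p-values ran from 0.106 to 0.82. At an unadjusted p under 0.05, 8 of 37 (21.6%) were higher in Cre-positive mice, against 14.3% of all genes, and 0 were lower, against 6.29%. The difference was above 0 for 34 of the 37 genes, against 61% of all genes. Its median was 0.57, with a median of 0.06 over all genes. The pooled SD between the 2 arrays of a group, for the median of the list, was 0.43. Without Cre-negative 1 the median difference was 0.26 and without Cre-positive 2 it was 0.24, while it was 0.82 without Cre-negative 2 and 0.88 without Cre-positive 1.

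Most of the 37 genes shared an order of the arrays. Cre-negative 1 was lowest for 34 of them, against 31.6% of all genes, and Cre-positive 2 was highest for 34, against 27.6%. Sample 2 was above sample 1 in both groups for 34 genes, where 24.7% of all genes had that arrangement. Cre-negative 1 was the lowest and Cre-positive 2 the highest array for 32 of them (86.5%), an arrangement found in 12.7% of all genes. The other pair of arrays, Cre-negative 2 and Cre-positive 1, came in either order: among those 32 genes Cre-positive 1 was above Cre-negative 2 for 15, below it for 16 and equal to it for 1, Pole. In array means, the list deviated from each gene's own average by −0.60 in Cre-negative 1, 0.09 in Cre-negative 2, −0.04 in Cre-positive 1 and 0.54 in Cre-positive 2. Cre-positive 1 thus lay slightly below Cre-negative 2. In bulk RNA, fewer cycling cells and less of these transcripts per cell cannot be told apart.

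**Figure D1:**
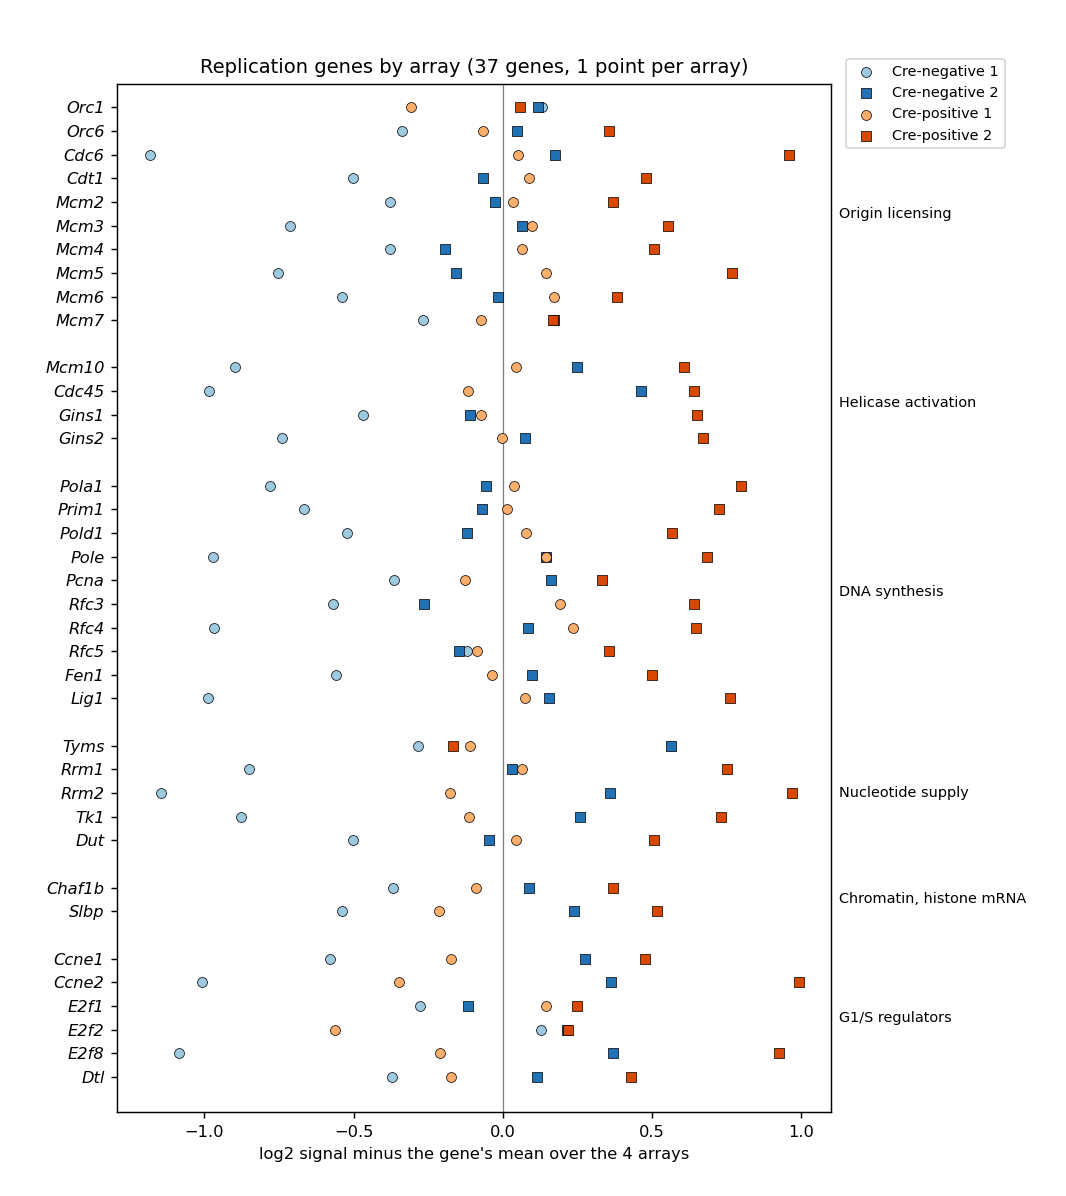
Log2 signal of each of the 37 replication genes on each of the 4 arrays, minus the gene's mean over the 4 arrays, with genes ordered by role and 1 point per array. Cre-negative 1 is at the left and Cre-positive 2 at the right for 32 genes, with Cre-negative 2 and Cre-positive 1 between them; Orc1, Rfc5, Mcm7, Tyms and E2f2 depart from that order.

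Many of the listed genes are known E2F targets, and their promoters were searched for the E2F site. The list was chosen by name. A share of sites above that of all genes can follow from that choice alone and says nothing about these arrays. The 4 octamers TTTCCCGC, TTTGGCGC, TTTCGCGC and TTTGCCGC were sought on both strands in the 250 bases before the start site, in RefSeq promoters of build GRCm38.p6. These octamers can overlap one another when they lie on opposite strands. Of 33 listed genes with a promoter in that table, 8 (24.2%) held at least 1 octamer, against 2.16% of the 27025 genes in the table and 3.95% of the 9445 tested genes found there. Singly, TTTCCCGC occurred in 0.895% of all promoters, TTTGGCGC in 0.417%, TTTCGCGC in 0.256% and TTTGCCGC in 0.338%, the last in 0 of the listed genes. A match is a run of letters and no evidence of binding, and a missing match says only that these letters are not in the window.

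All 8 are shown as 60 bases around the first match, on the gene's own strand from 5′ to 3′ and ending at or before the start site, with octamers in capitals. They include 5 licensing genes, Mcm5, Mcm6, Cdc6, Mcm7 and Orc1, of which Mcm7 and Orc1 depart from the common order of the arrays.
Mcm5 (chr8:75109330-75109389, plus strand): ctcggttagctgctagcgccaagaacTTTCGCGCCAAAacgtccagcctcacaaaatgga
Mcm6 (chr1:128359782-128359841, minus strand): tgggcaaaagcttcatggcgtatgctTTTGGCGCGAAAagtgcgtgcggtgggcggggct
Cdc6 (chr11:98907987-98908046, plus strand): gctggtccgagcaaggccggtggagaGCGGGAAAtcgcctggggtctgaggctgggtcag
Mcm7 (chr5:138172015-138172074, minus strand): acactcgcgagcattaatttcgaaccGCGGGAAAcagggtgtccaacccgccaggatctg
Pola1 (chrX:93632260-93632319, minus strand): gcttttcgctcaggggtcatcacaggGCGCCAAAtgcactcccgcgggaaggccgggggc
Rfc3 (chr5:151651209-151651268, minus strand): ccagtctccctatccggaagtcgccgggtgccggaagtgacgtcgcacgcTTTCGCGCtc
Orc1 (chr4:108579394-108579453, plus strand): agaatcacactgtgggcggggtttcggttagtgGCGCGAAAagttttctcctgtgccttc
Dtl (chr1:191575545-191575604, minus strand): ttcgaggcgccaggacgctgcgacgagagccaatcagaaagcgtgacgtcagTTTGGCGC
In Mcm5 and Mcm6 an octamer on each strand overlapped within the run of capitals. The 8 genes had a median difference of 0.69, from −0.25 to 1.01, and the 24 measured genes without a match one of 0.54, from −0.34 to 0.88. These ranges overlap over most of their length, and the difference between the medians was not tested.

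Among the licensing genes, 9 of 10 were higher in the Cre-positive mean and Orc1 was not. Mcm5, a subunit of the helicase ring, read 9.31 and 9.91 in the Cre-negative arrays, against 10.21 and 10.83 in the Cre-positive arrays. Its groups did not overlap, and the difference of 0.91 (95% interval 0.21 to 1.61, limma adjusted p = 0.161) was larger than the gap between the arrays of either group. Mcm4, another subunit, read 9.99 and 10.17 against 10.43 and 10.87, also without overlap and with a difference of 0.57 ± 0.18 (SE, n = 2 per group, limma adjusted p = 0.168). Mcm6 read 9.64 and 10.17 against 10.35 and 10.56, a difference of 0.56 ± 0.20. Here Cre-negative 2 came within 0.2 of Cre-positive 1. Cdt1, the loading factor that is destroyed once S phase begins, read 10.02 and 10.46 against 10.61 and 11.01, a difference of 0.57 ± 0.21 (SE, n = 2 per group, limma adjusted p = 0.207). A dimmer Cdt1 probe set above the filter read 7.76 and 8.33 against 8.28 and 8.52, with overlap and a difference of 0.35.

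The remaining subunits of the ring ranged widely. Mcm2 and Mcm3 differed by 0.40 and 0.65 with no overlap between groups, but both probe sets can bind several transcripts. The other Mcm2 probe set read 9.37 and 9.75 against 9.53 and 9.86, with overlap and a difference of 0.13. The brightest Mcm3 probe set without that limit read 7.33 and 8.17 against 8.18 and 8.52. It differed by 0.60, with Cre-negative 2 and Cre-positive 1 almost equal. The Mcm4 and Mcm5 probe sets given above can also bind several transcripts, and the brightest of their other probe sets differed by 0.43, with overlapping groups, and by 0.67, with no overlap. Mcm7 read 11.94 and 12.38 in the Cre-negative arrays, against 12.14 and 12.38 in the Cre-positive arrays, so its brightest probe set scarcely separated the groups (0.09 ± 0.19, SE), and with arrays centred on the median of the tested genes its difference was −0.03. Cdc6, the ATPase that recruits Cdt1, had the largest difference of the 37 genes, 1.01, but also one of the widest spreads. It read 6.59 and 7.95 in the Cre-negative against 7.83 and 8.74 in the Cre-positive arrays, so Cre-negative 2 lay above Cre-positive 1 and the 95% interval ran from −0.24 to 2.26. Orc1, the ATPase of the origin recognition complex, took the other direction: 6.89 and 6.88 in Cre-negative against 6.45 and 6.82 in Cre-positive arrays, a difference of −0.25 ± 0.15 (SE, limma adjusted p = 0.43). Orc6, a smaller subunit of the same complex, differed by 0.29 with overlapping groups.

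The 4 helicase activation genes were higher in the Cre-positive mean, with a median gap of 0.98 between the Cre-negative arrays. Gins1, a subunit of the GINS complex, read 7.57 and 7.93 in the Cre-negative arrays, against 7.97 and 8.69 in the Cre-positive arrays. The groups touched without overlapping, with a difference of 0.58 ± 0.26 (SE, n = 2 per group). Gins2, from the same complex, read 6.15 and 6.96 against 6.88 and 7.56, and its Cre-negative 2 value lay above Cre-positive 1. A dimmer Gins2 probe set read 5.22 and 6.01 against 6.02 and 6.61. It differed by 0.70, with Cre-negative 2 and Cre-positive 1 almost equal but no overlap. Mcm10, which helps to start the helicase, read 6.66 and 7.80 against 7.60 and 8.16, and Cdc45, the third part of the active helicase, read 5.98 and 7.43 against 6.85 and 7.61. For Cdc45 the gap of 1.45 between the Cre-negative mice was larger than the group difference of 0.52 (95% interval −0.72 to 1.77).

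All 10 genes of DNA synthesis were higher in the Cre-positive mean. Rfc3, a subunit of the loader that opens the sliding clamp, had the smallest p of the 37 genes. It read 6.34 and 6.65 in the Cre-negative arrays, against 7.11 and 7.55 in the Cre-positive arrays, a clear separation with a difference of 0.84 (95% interval 0.35 to 1.32), yet the limma adjusted p was 0.106. Its second probe set read 6.03 and 6.21 against 6.60 and 7.43. Pold1, the catalytic subunit of the polymerase that copies the lagging strand, read 8.45 and 8.85 against 9.05 and 9.54, a difference of 0.64 ± 0.22 (SE). Pola1, the catalytic subunit of the polymerase that extends primers, read 6.55 and 7.28 against 7.37 and 8.13, so Cre-negative 2 and Cre-positive 1 were almost equal although the difference of means was 0.83 ± 0.33 (SE).

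Other synthesis genes overlapped or nearly so. Prim1, the primase subunit that makes the RNA primer, differed by 0.74 with Cre-negative 2 at 9.27 and Cre-positive 1 at 9.35. A second Prim1 probe set, nearly as bright, read 8.51 and 9.39 against 9.38 and 9.99, with overlap. Its difference was also 0.74, below its gap of 0.88 between the Cre-negative arrays. Rfc4 differed by 0.88 and Rfc5 by 0.27, both without overlap, while Pole, the leading strand polymerase, read 7.63 in each of those 2 arrays. Pcna, the sliding clamp itself, read 11.72 and 12.25 in Cre-negative against 11.96 and 12.42 in Cre-positive arrays, in pairs that interleave, with a difference of 0.21 (95% interval −0.38 to 0.79). Fen1, which trims primers from the lagging strand, and the ligase gene Lig1 differed by 0.46 and 0.83, and for both Cre-negative 2 was above Cre-positive 1. The Fen1 probe set can bind several transcripts. The other Fen1 probe set read 7.81 and 8.10 against 8.22 and 8.52, without overlap. Its difference of 0.42 was larger than both gaps within groups.

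**Figure D2:**
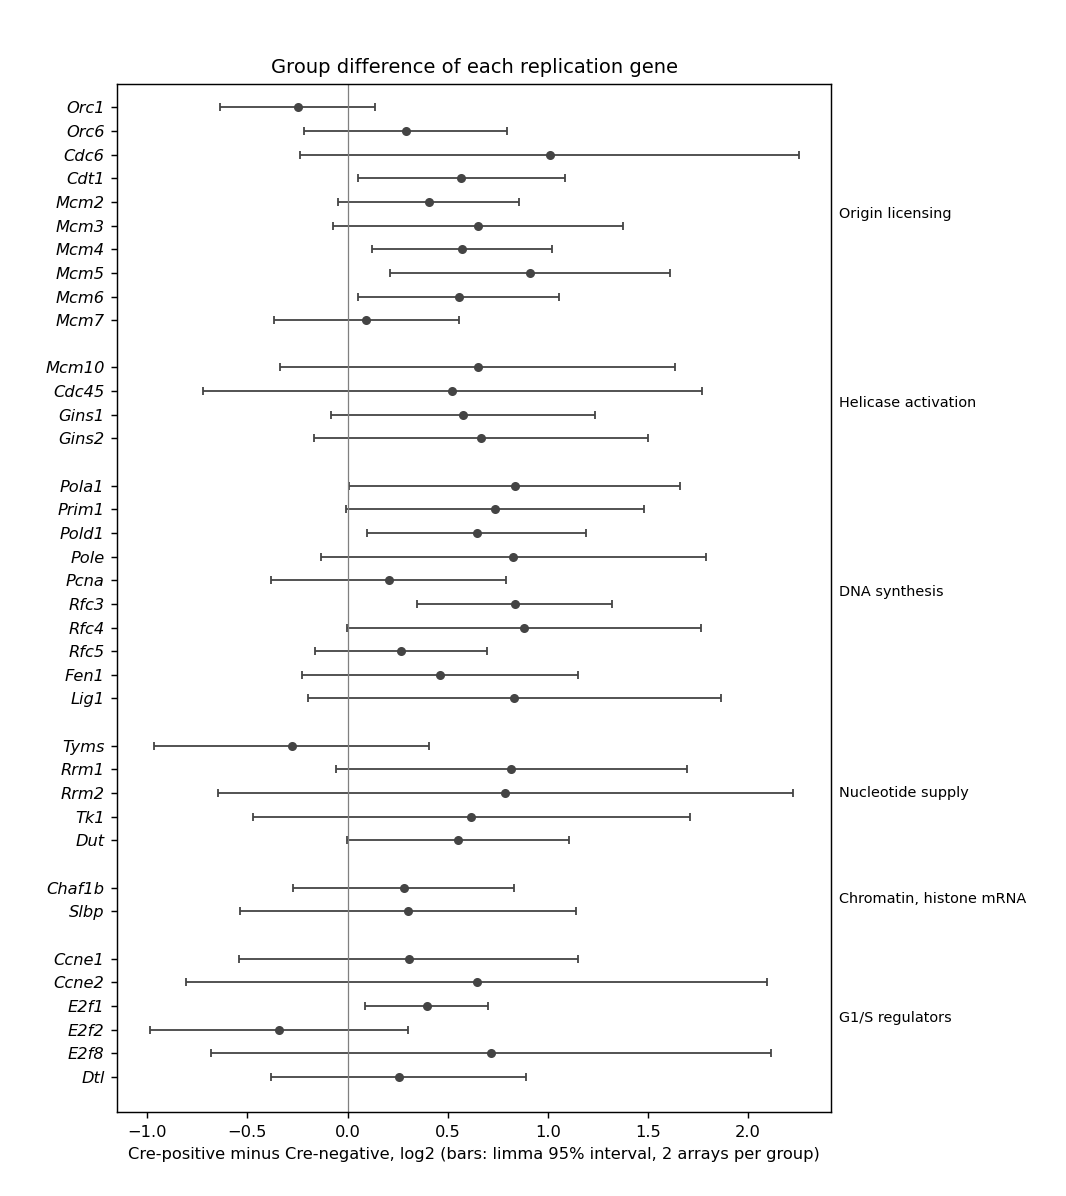
Cre-positive minus Cre-negative difference of each of the 37 genes in log2 units, with genes ordered by role; points are limma estimates from 2 arrays per group and bars their 95% intervals, not adjusted for multiple genes. Intervals of 8 genes lie above 0, those of the other 29 include 0, and Orc1, Tyms and E2f2 have estimates below 0.

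In the nucleotide supply group, 4 of 5 genes were higher in the Cre-positive mean. Dut, which removes dUTP, read 9.91 and 10.37 in the Cre-negative arrays, against 10.46 and 10.92 in the Cre-positive arrays. Rrm1, the large subunit of ribonucleotide reductase, read 9.25 and 10.13 against 10.17 and 10.85. In both genes the groups were separated by less than 0.1, at differences of 0.55 ± 0.22 and 0.82 ± 0.35 (SE). A dimmer Rrm1 probe set read 6.87 and 7.54 against 7.16 and 7.92, with overlap and a difference of 0.34. Rrm2, the small subunit made in S phase, read 9.85 and 11.35 against 10.82 and 11.96, and its gap of 1.50 between the Cre-negative mice was the widest within that group for any of the 37 genes. Tk1, a thymidine kinase, read 6.99 and 8.13 against 7.76 and 8.60. Tyms, the enzyme that makes thymidylate, departed from the rest: it read 5.32 and 6.16 against 5.49 and 5.43, a difference of −0.28 with Cre-negative 2 highest. Its other 3 probe sets lay below the filter, so Tyms rests on 1 dim probe set.

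Both measured genes that package new DNA overlapped between groups. Chaf1b, a subunit of the histone chaperone that follows the replication fork, read 7.11 and 7.56 in the Cre-negative arrays, against 7.38 and 7.84 in the Cre-positive arrays. Slbp, which binds histone messenger RNA, read 8.92 and 9.70 against 9.25 and 9.98. In each, sample 2 was above sample 1 by a similar amount in both groups, 0.45 and 0.46 for Chaf1b and 0.78 and 0.73 for Slbp, against group differences of 0.28 and 0.30.

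The regulators of S phase entry differed among themselves, with 5 of 6 higher in the Cre-positive mean. E2f1, an activating E2F, read 6.16 and 6.32 in the Cre-negative arrays, against 6.58 and 6.69 in the Cre-positive arrays, a difference of 0.39 ± 0.12 (SE, limma adjusted p = 0.165) that exceeded the gap within either group. Another of its probe sets differed by 0.46 and a dimmer one by 0.03. E2f2, also an activator, read 10.19 and 10.27 against 9.50 and 10.28, so only Cre-positive 1 stood apart, below the other 3 arrays, and its second probe set read 9.28 and 9.44 against 8.72 and 9.39. E2f8, a repressive E2F that is itself an E2F target, read 7.67 and 9.12 against 8.54 and 9.68. Ccne1 and Ccne2, the cyclin E genes, differed by 0.30 and 0.64 with gaps of 0.65 to 1.37 within groups. Dtl, a subunit of the ligase that destroys Cdt1, differed by 0.25, and its probe sets above the filter ran from −0.15 to 0.30.

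Probe sets of 1 gene mostly went together. Of the 85 probe sets, 70 had a mean at or above the filter, and 63 of these were higher and 7 lower in the Cre-positive mean. In 21 of the 23 genes with more than 1 such probe set all had the same sign, the exceptions being Cdc45 and Dtl. Cre-negative 1 was the lowest array for 59 of the 70 probe sets and Cre-positive 2 the highest for 61. Fitted as probe sets, 0 of the 85 were called by limma, against 0.687% of 34945 named probe sets, and 17 (20%) had an unadjusted p under 0.05, against 16%. The 4 probe sets of Mcm7 differed by 0.09 to 0.42, and the brightest, which can bind several transcripts, gave the smallest difference.

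Set against the spread within groups, some replication genes separated the groups and others did not, as was so among all genes. The arrays of the 2 groups did not overlap for 16 genes with Cre-positive higher (43.2%), against 34.2% of all genes, and for 1, Orc1, with Cre-positive lower, against 18.7%. For 11 genes (29.7%) the difference was larger than both within-group gaps, all of them higher in Cre-positive mice, against 26.1% of all genes. These were Cdt1, Mcm2, Mcm4, Mcm5, Mcm6, Pola1, Prim1, Pold1, Rfc3, Dut and E2f1. The second probe sets of Cdt1 and Prim1 above the filter, and the dimmest of E2f1, did not qualify. With multi-transcript probe sets dropped, Mcm2, Mcm4, Mcm5 and Pold1 no longer qualified, while Fen1 did. The share of all genes was not computed for that setting. The shares with Cre-positive higher, 43.2% and 29.7%, stood near those of all genes. The share without overlap and lower was 2.7%, against 18.7%. The median size of the gap was 0.60 between the Cre-negative and 0.54 between the Cre-positive arrays, against 0.16 and 0.13 over all genes, beside a median size of the group difference of 0.57 against 0.17. The count of 17 genes without overlap (52.9% of all genes) was 9 with arrays centred on the median of the tested genes (54.7% of all genes) and 11 when the probe sets of a gene were averaged (54%). It was 36 without Cre-negative 2 and 35 without Cre-positive 1, where 80.3% and 73.9% of all genes did not overlap, and 19 and 18 without Cre-negative 1 and Cre-positive 2, where 78.6% and 72.7% did not.

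**Figure D3:**
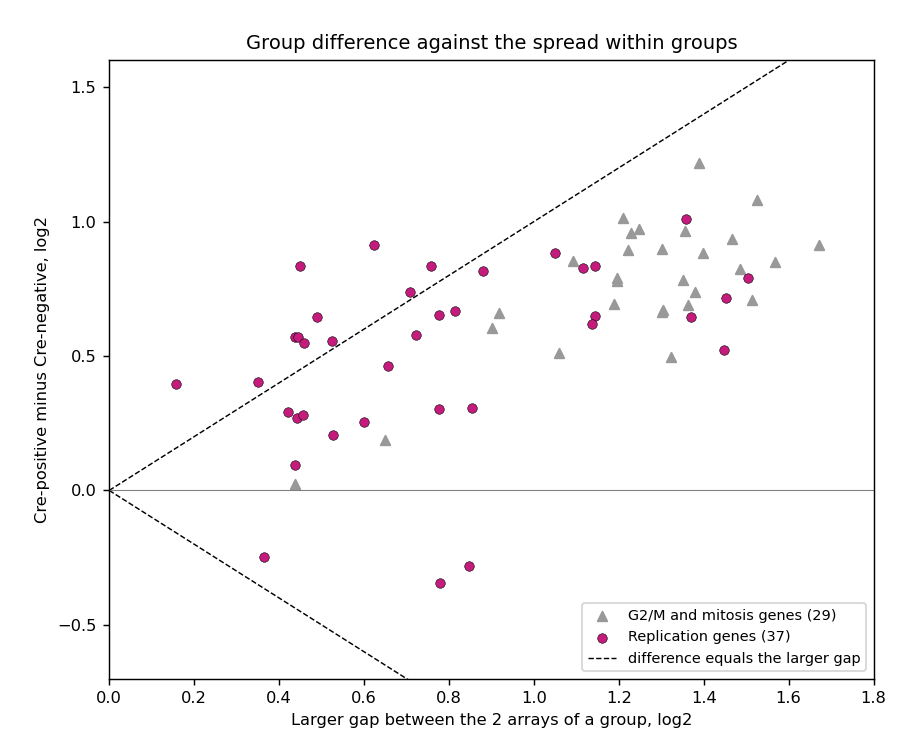
Cre-positive minus Cre-negative difference (log2) of each gene against the larger of the gaps between the 2 arrays of a group (log2), for 37 replication genes (circles) and 29 G2/M and mitosis genes (triangles); dashed lines mark equality. Of the replication genes 11 lie above the upper line, and none of the mitosis genes does.

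Further genes of the pathway also held no call. Of 47 measured genes among 50 other replication and repair factors, 0 passed in limma, against 1.37% of all genes. Their median difference was 0.29. An unadjusted p under 0.05 was reached by 9 (19.1%) with Cre-positive higher, against 14.3% of all genes, and by 0 with it lower, against 6.29%. Cre-negative 1 was lowest and Cre-positive 2 highest for 33 of the 47 (70.2%), against 12.7% of all genes. Uhrf1, which guides maintenance methylation at the fork, read 8.69 and 9.28 in the Cre-negative against 9.65 and 10.28 in the Cre-positive arrays (0.98 ± 0.28, SE). Dnmt1, the maintenance methyltransferase, differed by 0.75, the uracil glycosylase gene Ung by 0.85 and the nucleotide pyrophosphatase gene Dctpp1 by 0.80. These 4 had limma adjusted p-values from 0.143 to 0.173.

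Control genes of G1 were mixed. Limma called none of 22, against 1.37% of all genes, and the median difference was 0.20. An unadjusted p under 0.05 was reached by 4 (18.2%) with Cre-positive higher, against 14.3% of all genes, and by 2 with it lower, against 6.29%. Cdkn1a, an inhibitor of cyclin-dependent kinases, read 6.09 and 5.89 in the Cre-negative against 7.88 and 6.89 in the Cre-positive arrays, so it was highest in Cre-positive 1 (1.39 ± 0.32, SE, limma adjusted p = 0.104). The cyclin D2 gene Ccnd2 differed by 0.63 and E2f3, an activating E2F, by 0.57. Cdkn2d, which inhibits the cyclin D kinases, read 10.13 and 9.91 against 9.36 and 9.60 (−0.54 ± 0.15, SE). These 4, picked for the smallest p in their list, did not overlap between groups. In the whole list 8 of 22 did not overlap with Cre-positive higher, against 34.2% of all genes. Another 5 did not overlap with Cre-positive lower, against 18.7%. Of the 4 picked genes only E2f3 had Cre-negative 1 lowest and Cre-positive 2 highest.

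The 29 measured genes of G2 and mitosis kept 1 order throughout: Cre-negative 1, then Cre-positive 1, then Cre-negative 2, then Cre-positive 2. Cre-negative 2 was above Cre-positive 1 in 29 of 29, against 20 of 37 replication genes and 41.8% of all genes. The median gap within groups was 1.17 and 1.21, with a median difference of 0.79. In limma 0 genes passed, against 1.37% of all genes. An unadjusted p under 0.05 was reached by 0, where 14.3% of all genes were higher and 6.29% lower. Cenpf, a kinetochore protein gene, read 7.07 and 8.22 in the Cre-negative against 8.17 and 9.56 in the Cre-positive arrays, and the microtubule depolymerase gene Kif2c, Cdca8 and the ubiquitin carrier gene Ube2c differed by 0.96 to 1.01. Whether replication and mitosis genes differ from each other in this respect was not tested.

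**Figure D4:**
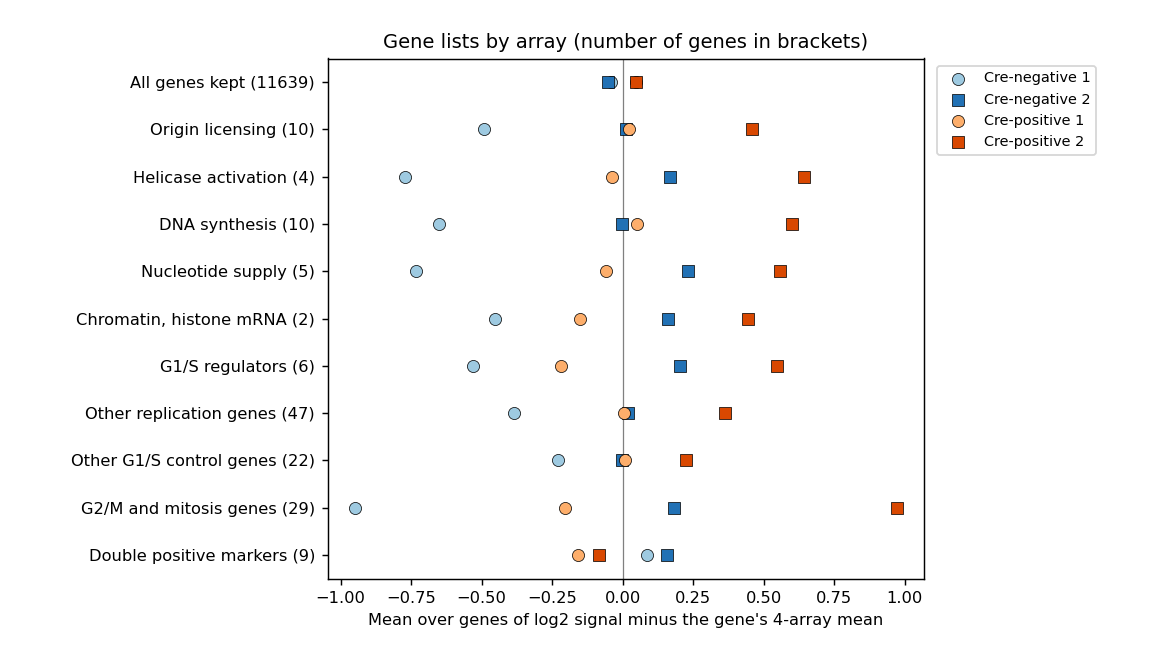
Mean over the genes of each list of log2 signal minus the gene's 4-array mean, for the 4 arrays, with the number of genes in brackets. The licensing genes sit at −0.49, 0.01, 0.02 and 0.46 and the G2/M and mitosis genes at −0.95, 0.18, −0.20 and 0.97 in Cre-negative 1 and 2 and Cre-positive 1 and 2, while all tested genes stay between −0.05 and 0.05.

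Markers of other cells that a thymus sample can hold were compared array by array. The 11 of 14 macrophage and granulocyte markers above the filter averaged 5.11 and 5.04 in the Cre-negative arrays, against 5.91 and 6.19 in the Cre-positive arrays, with Itgam, Mpo and S100a9 below the filter. The 8 of 9 dendritic cell markers averaged 5.84 and 5.50 against 6.59 and 6.65, with Xcr1 below it. Both means were higher in each Cre-positive array than in each Cre-negative array, and both were lowest in Cre-negative 2 and not in Cre-negative 1. The genes behind them differed widely, with 10 of 11 and 7 of 8 higher in the Cre-positive mean. Limma called Lyz2 (1.85), Ctss (2.98), H2-Ab1 (1.58) and Irf8 (1.08), where 1.37% of all genes were called. Adgre1 (−0.03), Elane (0.02), Fcer1g (0.06) and Siglech (0.01) scarcely differed, and Flt3 differed by −0.16. S100a8, a granulocyte gene, read 8.38 in Cre-positive 2, the array highest in replication genes, and 4.02 to 4.52 elsewhere. It enters the macrophage and granulocyte mean and raises it in that array. S100a9, below the filter in its mean over the 4 arrays, read 7.14 in Cre-positive 2 and 3.74 to 3.93 elsewhere. Mpo read 5.10 in that array and 4.13 to 4.48 elsewhere, while Elane stayed between 4.85 and 5.05 on all 4 arrays. The 6 of 8 markers of double negative thymocytes, a stage with many cycling cells, averaged 6.219 and 6.225 against 6.345 and 6.503, with Kit below the filter. The Cre-negative means were almost equal, and only 1 of the 6 genes, Il7r, had Cre-negative 1 lowest and Cre-positive 2 highest. Genes of this list went in both directions, 2 higher and 4 lower in the Cre-positive mean. The interleukin 7 receptor gene Il7r rose by 1.12 (limma adjusted p = 0.0271). Ptcra, the pre-T cell receptor alpha chain gene, differed by 1.16 (limma adjusted p = 0.054), Cd44 by −0.61 and Il2ra by −0.40. Of the erythroid markers only Alas2, 1 of 7, was above the filter, at 5.35 and 4.71 against 4.73 and 5.28. The 3 of 5 B cell markers above it averaged between 5.98, in Cre-negative 2, and 6.34, in Cre-positive 2, and the 5 of 8 stromal markers 5.49 and 5.57 against 6.96 and 6.44. Of these stromal markers, Col1a2 read 5.18 and 5.33 against 11.55 and 8.01, and Pdgfrb and Krt8 differed by 1.05 and 0.43. Epcam and Krt5 differed by −0.13 and −0.0044. Col1a1, Col3a1 and Pdgfra lay below the filter and read at most 3.96 on any array. The part of other cells, and of the sex of Cre-negative 2, in the replication signals was not tested.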

How the data were processed

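The deposited table holds log2 signals, 1 per probe set and array, made by the authors with RMA, per the submitters' processing notes; no version is stated. They span 2.18 to 14.4, and base 2 is taken from RMA's usual scale, since no label states it. Labels list several amounts of starting RNA without tying them to samples, so a batch that coincided with the groups cannot be told apart from them. RMA gives no counts, and precision is limited by 2 arrays per group. Symbols are those of the platform annotation; 37 of 37 measured genes matched the RefSeq table (GRCm38.p6) by Entrez identifier with the symbol unchanged.

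The brightest single-symbol probe set stood for each gene, and limma 3.58.1 (R 4.3.3, lmFit and eBayes) was fitted to all 11639 genes at or above the filter. Residual degrees of freedom were 2, with a prior of 3.59. On simulated data for this comparison (11639 genes), 65 of 100 genes shifted by 1 log2 unit and 99 of 100 shifted by 2 were found, with 11 false among 175 calls. The simulated noise was independent between genes and followed the spread fitted over all genes. The listed genes had median gaps within groups of 0.60 and 0.54, against 0.16 and 0.13 over all genes. These recoveries therefore do not hold for the listed genes. Genes, lists and tests were chosen with earlier results of these data known. Named were all listed genes; Ikzf1; and, from each further cell cycle list, the 4 genes of smallest p. Orc1, Tyms and other genes outside the 3 of smallest p in a role were given more room after their values were seen. Alternatives varied the filter, probe sets, variance prior, scaling, weights, sample number and each array. Figures used matplotlib 3.10.9.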

Additional observations from a re-analysis of the deposited data

How the results depend on the processing

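No listed gene was called under any alternative without the replicate block, and the median difference of the list stayed above 0 in every one, from 0.24 to 0.88. With the sample number as a replicate block, limma called 17 of the 37 genes, 12 other replication genes and 821 of all genes. The labels give no link between same-numbered mice, so the block is not taken as a pairing. Across genes the deviations of same-numbered samples correlated at 0.177, in 2 pairs, too few to settle whether they share more than a number, and this fit has 1 residual degree of freedom. All-gene calls were 90 with the filter at the 60th percentile, 245 with a robust prior and 3 to 99 with an array left out. The 17 genes without overlap were 11 with the mean of all probe sets, 9 with arrays centred on the median of the tested genes (a setting chosen after seeing the data) and 18 to 36 with an array left out. That centring moved the median of all genes from 0.06 to −0.07, with 61.0% of calls higher against 80.6%, and turned Mcm7 to −0.034. With an array left out, signs turned for 10 genes: Mcm7 (−0.12 to 0.31), Cdc45 (−0.20 to 1.25), Pcna (−0.058 to 0.47), Tyms (−0.70 to 0.14), Slbp (−0.086 to 0.69), Ccne1 (−0.12 to 0.73), Ccne2 (−0.040 to 1.33), E2f2 (−0.73 to 0.047), E2f8 (−0.0092 to 1.44) and Dtl (−0.046 to 0.56). The other 27 kept their sign in every alternative. The causes were not tested.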
